A study of Homo sapiens with 4 samples.

Results

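The stanniocalcins STC1 and STC2 were followed across 4 RNA-seq libraries of A375, a human melanoma cell line. The pair was taken by name, 2 of the 26484 genes in the deposited table, and it was chosen by its normalized counts in these same libraries, with the difference between the groups already known. Its values in this contrast are therefore described and not tested. A CRISPR-Cas9 knockout of p53 gave 2 libraries, and the parental line, in which p53 is wild type, gave the other 2. The knockout libraries are called 2 and 8, the numbers that the deposited table gives them, and the parental libraries 1 and 2. The labels name DMEM as the medium and no treatment. An edited line with p53 intact was not part of the comparison, so loss of p53 cannot be told apart from editing or from selection of edited cells. Nothing in the labels tells if a group's libraries are separate cultures or clones. What spread the p-values measure is therefore not known, and much of it may be technical. The knockout libraries differed more from each other than the parental ones did, as given below.

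Stanniocalcins are secreted glycoproteins, first known from fish as hormones that lower calcium uptake, and in mammals they act mostly on nearby cells. Both human proteins bind and inhibit the metalloproteinase PAPP-A, which cuts IGF-binding proteins and so frees insulin-like growth factors for their receptor. STC1 is known as a target of the hypoxia factor HIF-1, and STC2 as a gene induced by hypoxia and by ATF4 during endoplasmic reticulum stress. STC1 lies on the minus strand of chr8:23841915-23854807 and STC2 on the minus strand of chr5:173314713-173329503 (hg38, GENCODE release 29). Both are protein-coding genes whose main transcript has 4 exons, and 0 other annotated genes overlap either of them.

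Recovered reads totalled 30334054 and 32160978 in knockout libraries 2 and 8, and 29230554 and 36331894 in parental libraries 1 and 2. The melanoma lineage marker SOX10 had 28125 and 25662 normalized counts in the knockout and 30033 and 29587 in the parental libraries, while the pigmentation genes MLANA and TYR were at 0 in all 4. The p53 targets CDKN1A, a cell cycle inhibitor, and MDM2, the ligase that degrades p53, did not separate alike. CDKN1A had 4898 and 2603 normalized counts in the knockout libraries, on either side of 3561 and 3889 in the parental ones, and MDM2 had 4325 and 4111 in the knockout against 4359 and 4775 in the parental libraries. Both pairs of libraries differed beyond sampling noise, with a chi-square per degree of freedom of 61.6 between the knockout libraries and 5.57 between the parental ones.

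STC1 was the member that differed widely between the groups. It had 3978 and 4662 normalized counts in knockout libraries 2 and 8, against 1220 and 1187 in parental libraries 1 and 2. Both knockout libraries were high and the groups lay far apart, with the lower knockout library at 3.26 times the higher parental one. The means were 4320 ± 483 in the knockout and 1204 ± 23.7 in the parental line (SD, n = 2 each), a ratio of 3.59. The log2 fold change, knockout minus parental on log2(normalized count + 1), was 1.84 ± 0.11 (SE).

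The values of STC1 rested on 3780 and 4773 reads in the knockout and on 1113 and 1353 reads in the parental libraries, or 125 and 148 against 38.1 and 37.2 CPM (reads scaled to the library total). Exact 95% Poisson intervals ran from 3852 to 4107 and from 4530 to 4796 normalized counts in knockout libraries 2 and 8, and from 1150 to 1294 and from 1124 to 1252 in parental libraries 1 and 2. These intervals hold for counting error alone, because PCR copies of a molecule were not marked by molecular identifiers. By them the parental libraries could not be told apart, while knockout library 8 exceeded knockout library 2 by 1.17-fold, more than counting error. That gap is ordinary among these libraries: 49.7% of the genes tested differed more between the knockout libraries than STC1 did.

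STC2 differed little between the groups. It had 286 and 305 normalized counts in knockout libraries 2 and 8, against 273 and 259 in parental libraries 1 and 2. Both knockout values were above both parental ones, but by a narrow margin, with the lower knockout library at 1.05 times the higher parental one and the knockout libraries 1.06-fold apart. The means were 295 ± 13.1 in the knockout and 266 ± 10.1 in the parental line (SD, n = 2 each), a ratio of 1.11 and a log2 fold change of 0.15 ± 0.14 (SE).

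STC2 rested on fewer reads, 272 and 312 in the knockout and 249 and 295 in the parental libraries. Its Poisson intervals all overlapped, running from 253 to 322 and from 272 to 340 normalized counts in knockout libraries 2 and 8, and from 240 to 309 and from 230 to 290 in parental libraries 1 and 2. These intervals describe single libraries, and the difference between the groups was not tested against counting error. Groups that do not overlap are common here: knockout libraries were both higher than both parental ones in 22.8% of the 15431 genes tested, and both lower in 23.7%.

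**Figure D1:**
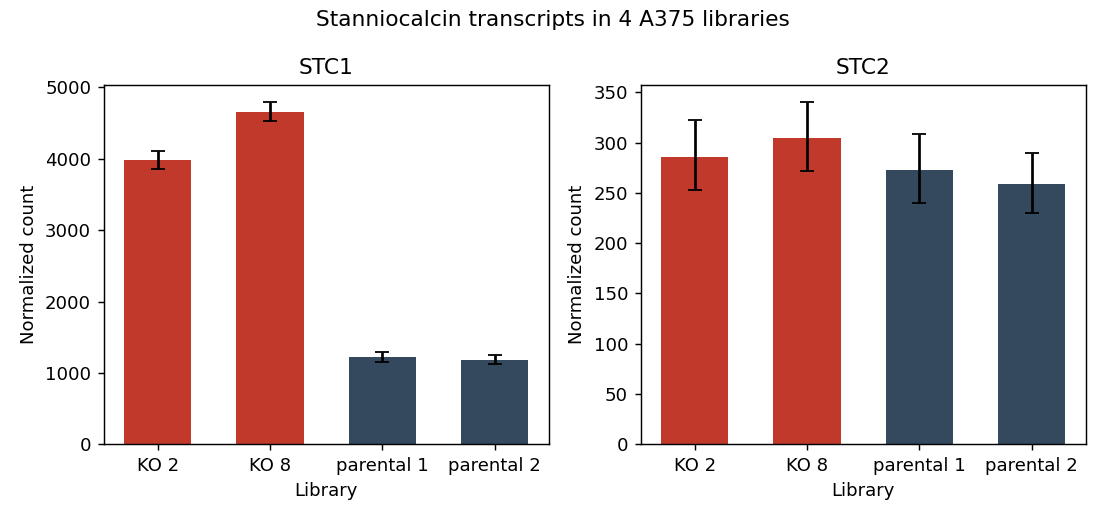
Normalized count (y axis, linear, each panel with its own scale) of STC1 and STC2 in each library (x axis; KO, knockout), with exact 95% Poisson intervals as error bars. STC1 stood at 3978 and 4662 in the knockout libraries against 1220 and 1187 in the parental ones, while the intervals of STC2 overlapped in all 4 libraries.

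The order of the libraries was the same for both genes, from knockout 8 through knockout 2 and parental 1 down to parental 2. Within the groups, only the step between the knockout libraries for STC1 exceeded counting error. The step between the groups was not tested for either gene, because the pair was chosen by it. The ratio of STC1 to STC2 normalized counts was 13.9 and 15.3 in knockout libraries 2 and 8, against 4.47 and 4.59 in parental libraries 1 and 2. Per kilobase of annotated exon (4149 bases for STC1 and 6128 for STC2), which makes the levels of the 2 genes comparable, STC1 had 959 and 1124 normalized counts in the knockout and 294 and 286 in the parental libraries. STC2 had 46.7 and 49.7 per kilobase in the knockout and 44.6 and 42.2 in the parental libraries. STC1 was thus the more abundant stanniocalcin in every library, at 20.5 and 22.6 times the level of STC2 per kilobase in knockout libraries 2 and 8, and 6.60 and 6.77 times in parental libraries 1 and 2.

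Over the 15431 genes tested, 92 had a larger log2 fold change than STC1 and 3820 a larger one than STC2. Among the 6509 other genes whose parental mean count was at least that of STC1, 1 had a larger log2 fold change. That gene, singled out after its value was seen, was LCN2, the iron-carrier protein lipocalin 2, with 35313 and 3300 normalized counts in knockout libraries 2 and 8 against 1531 and 1563 in parental libraries 1 and 2. LCN2 was high mainly in 1 knockout library, and STC1 in both.

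**Figure D2:**
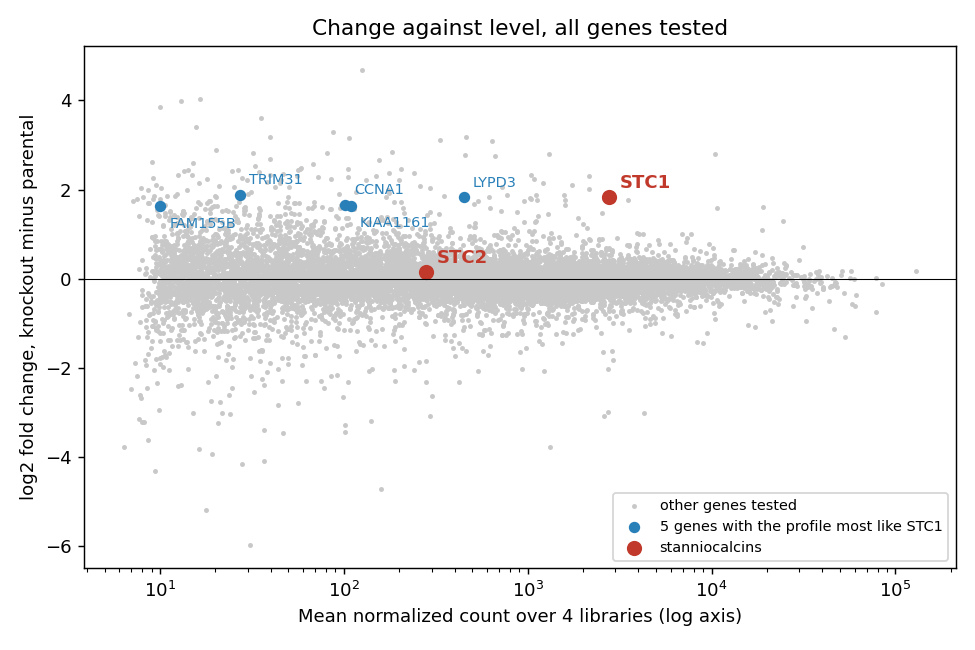
Log2 fold change, knockout minus parental (y axis), against mean normalized count over the 4 libraries (x axis, log scale, not corrected for gene length) for the 15431 genes tested, each a grey point. STC1, at 1.84, lies at the upper edge of the genes with comparable counts, and STC2, at 0.15, lies within the main cloud.

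No gene passed the test that compared the groups over the whole table. With an adjusted p under 0.05, limma on log2(normalized count + 1) called 0 of 15431 genes, while 903 genes (5.85%) were higher and 950 (6.16%) lower before adjustment (p under 0.05), and edgeR on the recovered reads called 0, with 946.0 genes higher and 921.0 lower before adjustment. DESeq2 on the recovered reads called 198 genes higher and 200 lower among 16330 with an adjusted p, or 1.21% and 1.22%. Single genes given below as called rest on DESeq2 alone. Each lost that call when either parental library was left out and kept it when either knockout library was left out. A library left alone in its group was taken to have the spread of the other group. The knockout pair was the more spread, with a chi-square per degree of freedom of 61.6 against 5.57.

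Genes whose profile over the 4 libraries was most like that of STC1 were found by the Euclidean distance between profiles of log2(normalized count + 1), each set to its parental mean. This distance is a description of 4 libraries, and depth and clone or culture are shared by all genes of a library. The nearest was LYPD3, a membrane-anchored relative of the urokinase receptor, at a distance of 0.17, the only gene within 0.25. LYPD3 had 632 and 768 normalized counts in the knockout libraries, against 183 and 210 in the parental libraries. The choice by likeness to STC1 fixes that direction, so LYPD3 and the genes after it are described and not tested.

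The next were TRIM31, a ubiquitin ligase, at a distance of 0.26, CCNA1, cyclin A1, at 0.30, FAM155B at 0.34 and KIAA1161, a glycosidase-like protein, at 0.35. CCNA1 had 148 and 160 normalized counts in the knockout and 51.5 and 45.6 in the parental libraries, and KIAA1161 had 139 and 193 against 49.3 and 54.4. TRIM31 had 42.1 and 44.9 normalized counts in the knockout and 9.87 and 12.3 in the parental libraries, and FAM155B 15.8 and 15.6 against 4.39 and 4.39. FAM155B passed the filter on low values only through the knockout libraries. STC2, whose profile is nearly flat, had 3303 genes within 0.25, the nearest being MARK4, EPG5, DMPK, RABGAP1 and FAM179B at 0.02 to 0.03, so its likeness names no group.

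Genes next to the stanniocalcins had medians near 0, although 1 of the 40 around STC1, PNMA2, had a larger log2 fold change than STC1. Over the 40 genes around STC1 with a mean normalized count of at least 100, 20 on each side, log2 values minus the parental mean had medians of 0.10 in knockout library 2 and 0.02 in library 8, where STC1 itself stood at 1.72 and 1.95. Over the 40 genes around STC2 the medians were 0.02 and 0.0025, against 0.11 and 0.20 for STC2.

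Single expressed genes near STC1 did vary. SLC25A37, a mitochondrial iron importer, had 3757 and 3058 normalized counts in the knockout and 2278 and 1967 in the parental libraries (DESeq2 adjusted p = 0.00932). NEFL, a neurofilament subunit on the other side of STC1, had 965 and 1413 in the knockout and 515 and 596 in the parental libraries (DESeq2 adjusted p = 0.00116). The groups did not overlap for either gene, at log2 fold changes of 0.68 ± 0.14 and 1.07 ± 0.22 (limma SE), and both calls were lost without parental library 1 (DESeq2 adjusted p = 0.811 for each) and without parental library 2 (1.00 and 0.311).

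DOCK5, a guanine nucleotide exchange factor beyond NEFL, had 3367 and 3283 normalized counts in the knockout and 3243 and 3316 in the parental libraries, and the groups overlapped. In all, DESeq2 called 5 of the 40 genes around STC1 higher and 0 lower, where it called 1.21% of all genes higher and 1.22% lower. The other 3, named after their values were seen, follow. PNMA2 had 655 and 206 normalized counts in knockout libraries 2 and 8, against 95.4 and 77.2 in parental libraries 1 and 2, a log2 fold change of 2.09 ± 0.58 (limma SE). DPYSL2 had 8353 and 5098 in the knockout and 3547 and 3573 in the parental libraries, and SLC39A14, a metal ion transporter, had 4423 and 5017 against 3271 and 3495. In all 3 the groups did not overlap.

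Around STC2 the nearest expressed genes were near level. BNIP1 had 522 and 565 normalized counts in the knockout and 549 and 567 in the parental libraries, and the homeobox gene NKX2-5 had 897 and 851 against 808 and 903. BOD1 had 1497 and 1792 in the knockout and 1728 and 1768 in the parental libraries, and CPEB4 1823 and 1991 against 1847 and 1903. The groups overlapped in all 4 of these genes. Of the 40 around STC2 DESeq2 called 1 higher and 0 lower, where it called 1.21% and 1.22% of all genes. The gene called was WWC1, named after its value was seen.

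**Figure D3:**
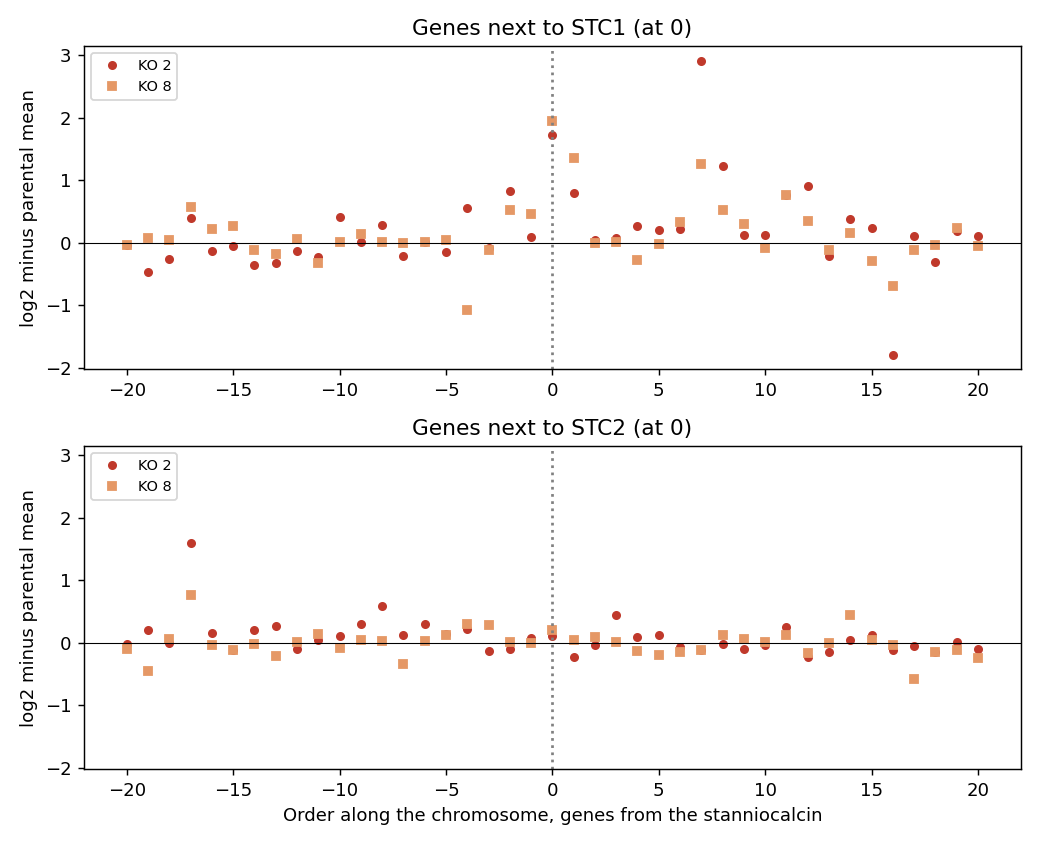
Log2(normalized count + 1) minus the parental mean (y axis) in knockout libraries 2 (circles) and 8 (squares) for the 20 expressed genes on each side of STC1 and STC2, in order along the chromosome (x axis, member at 0). STC1 stands at 1.72 and 1.95 where its neighbours had medians of 0.10 and 0.02, with single genes high or low and 1, PNMA2, at 2.92 and 1.25, while STC2 lies among its neighbours.

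The protease that stanniocalcins inhibit was not higher in both knockout libraries, and the genes of the IGF axis behind it were mixed. Of 17 listed genes of the PAPP-A and IGF axis, 13 passed the filter, and limma, edgeR and DESeq2 each called 0 of them. At an unadjusted limma p under 0.05, 1 was higher and 1 lower, where 5.85% and 6.16% of all genes tested were. The median log2 fold change of the 13 was 0.26, against -0.0057 over all genes tested. Both knockout libraries were above both parental ones for 5 genes and below for 2, against 22.8% and 23.7% of all genes tested. PAPPA, which encodes PAPP-A, had 1624 normalized counts in knockout library 2 and 97.7 in knockout library 8, against 195 and 141 in parental libraries 1 and 2. PAPPA was therefore high in 1 knockout library and low in the other, while STC1 was high in both. PRG2, whose proform also inhibits PAPP-A, had 10.5 and 12.7 in the knockout and 20.8 and 16.7 in the parental libraries, and PAPPA2, a second protease of the family, had 2.10 and 12.7 against 7.67 and 6.14, below the filter.

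The IGF-binding proteins, which hold insulin-like growth factors in the extracellular space, did not move together. IGFBP3, IGFBP6 and IGFBP7 were above the parental range in both knockout libraries, and the others measured were not. IGFBP4, the main substrate of PAPP-A, had 2616 and 2048 normalized counts in the knockout and 2498 and 2603 in the parental libraries. IGFBP5, also cut by PAPP-A, had 721 in knockout library 2 and 5314 in knockout library 8, against 799 and 716 in the parental libraries. IGFBP4 overlapped between the groups, and IGFBP5 was high in knockout library 8 alone.

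IGFBP3 had 53783 and 18113 normalized counts in knockout libraries 2 and 8, against 14150 and 11240 in parental libraries 1 and 2. IGFBP7 had 2849 and 667 in the knockout and 539 and 493 in the parental libraries, and IGFBP6 had 3021 and 1839 against 1714 and 1609. These 3 were above the parental range in both knockout libraries and furthest in library 2, the library that was high for PAPPA. IGFBP2 had 1213 and 1826 in the knockout and 1684 and 1907 in the parental libraries, and IGFBP1 had at most 3.91 in any library.

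The growth factors IGF1 and IGF2 had 0 reads in all 4 libraries. By counting error alone this allows up to 3 reads a library, or 3.16 and 2.93 normalized counts in the knockout and 3.29 and 2.63 in the parental libraries. Overlap with other annotated genes was checked for the stanniocalcins and not for IGF1 and IGF2. The receptors of these growth factors were detected. IGF1R, the signalling receptor, had 11099 and 8305 normalized counts in the knockout and 9191 and 8512 in the parental libraries, and INSR, the insulin receptor, had 1073 and 1323 against 1167 and 1154. IGF2R, which clears IGF2, had 8571 and 7333 in the knockout and 6529 and 6708 in the parental libraries. Of the receptor adaptors, IRS1 had 378 and 315 in the knockout and 171 and 224 in the parental libraries (limma log2 fold change 0.82 ± 0.21), and IRS2 had 3521 and 5997 against 8084 and 8219 (-0.83 ± 0.26). IRS1 and IRS2 were the 2 members with an unadjusted limma p under 0.05, in opposite directions, and neither passed adjustment.

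**Figure D4:**
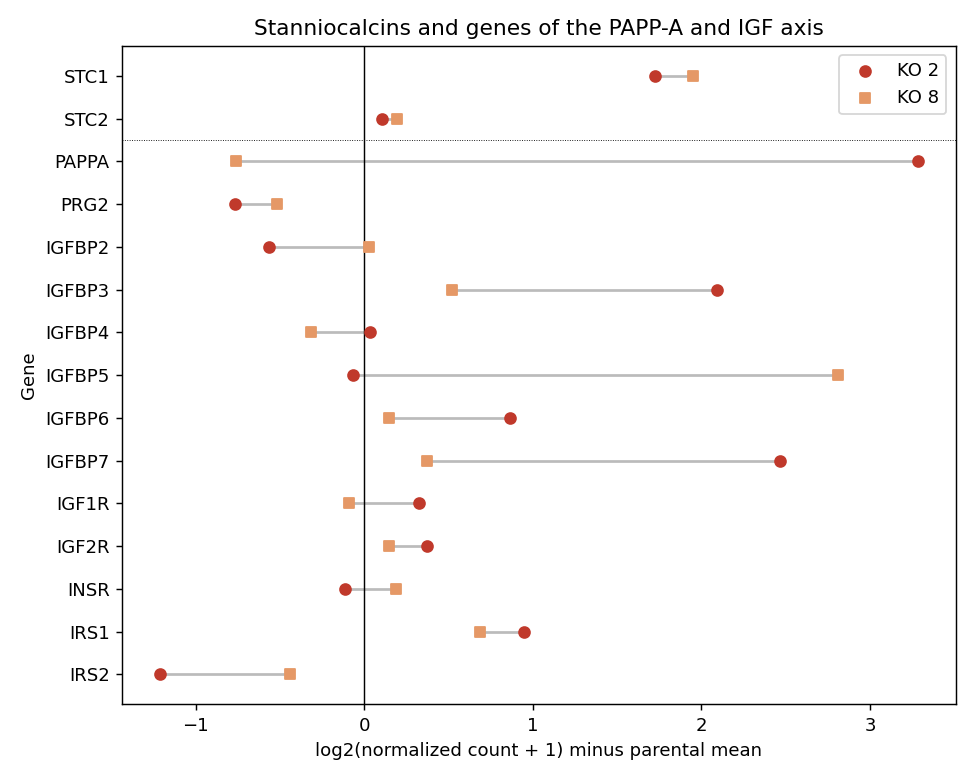
Log2(normalized count + 1) minus the parental mean (x axis) in knockout libraries 2 (circles) and 8 (squares) for STC1, STC2 and the 13 measured genes of the PAPP-A and IGF axis (rows). The 2 knockout libraries lie close together for STC1 (1.72 and 1.95) and far apart for PAPPA (3.28 and -0.76), IGFBP5 (-0.07 and 2.81) and IGFBP7.

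Calcium and phosphate genes, the classical field of stanniocalcin action, included another hormone, PTHLH, that was higher in the knockout by DESeq2. All 13 genes of store-operated calcium entry passed the filter. Their median log2 fold change was 0.04, and limma, edgeR and DESeq2 each called 0. Both knockout libraries were above both parental ones for 4 genes and below for 3, against 22.8% and 23.7% of all genes tested. At an unadjusted limma p under 0.05, 2 were higher and 0 lower, where 5.85% and 6.16% of all genes tested were. Those 2 were ATP2A3, an endoplasmic reticulum calcium pump, with 152 and 139 normalized counts in the knockout and 78.9 and 75.4 in the parental libraries, and STIM2, an endoplasmic reticulum calcium sensor, with 2819 and 1934 against 1526 and 1579. STIM1, the related sensor, had 791 and 876 in the knockout and 725 and 737 in the parental libraries, and the channel subunit ORAI1 had 1066 and 1144 against 1290 and 1265.

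Of 20 genes of calcium and phosphate homeostasis 9 passed the filter, with a median log2 fold change of -0.01. DESeq2 called 1 higher and 1 lower, where it called 1.21% and 1.22% of all genes, and limma and edgeR called 0. Before adjustment limma put 1 higher and 2 lower at a p under 0.05, where it put 5.85% and 6.16% of all genes tested. Both knockout libraries were above both parental ones for 3 of the 9 and below for 3, against 22.8% and 23.7% of all genes tested. PTHLH, parathyroid hormone-related protein, had 381 and 130 normalized counts in the knockout and 47.1 and 41.2 in the parental libraries (DESeq2 log2 fold change 2.53 ± 0.56, adjusted p = 0.000877). ATP2B4, a plasma membrane calcium pump, had 6259 and 9217 in the knockout and 13114 and 12656 in the parental libraries (DESeq2 log2 fold change -0.74 ± 0.21, adjusted p = 0.0266). Without parental library 1 or 2 both calls were lost (DESeq2 adjusted p = 0.116 and 0.244 for PTHLH, and 1.00 and 1.00 for ATP2B4). The receptors CASR, for calcium, and KL, a co-receptor of phosphate regulation, were at 0 in every library, and the phosphate carrier SLC20A1 had 30220 and 34056 normalized counts in the knockout and 37013 and 35253 in the parental libraries.

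Genes that share known inducers with the stanniocalcins went both ways. In each list of such genes, more lay above the parental range in both knockout libraries than below it. Of 30 HIF targets 29 passed the filter, with a median log2 fold change of 0.09. Of these, 9 had both knockout libraries above both parental ones and 3 had both below, where 22.8% and 23.7% of all genes tested did. EGLN3, among the 9, passed the filter only through the knockout libraries, which fixed its place there. By limma, edgeR and DESeq2 0 were called. At an unadjusted limma p under 0.05, 3 were higher and 0 lower, where 5.85% and 6.16% of all genes tested were. Those 3 were SLC2A1, LDHA and EGLN1. SLC2A1 had 4802 and 6035 normalized counts in the knockout and 4108 and 3998 in the parental libraries. LDHA had 28326 and 27016 against 22516 and 20887. Among those 29, the 2 with the largest absolute log2 fold changes were both negative, and neither passed the test. The glucose transporter SLC2A3 had 587 and 2010 normalized counts in the knockout and 2708 and 2160 in the parental libraries. The secreted lipase inhibitor ANGPTL4 had 546 and 287 against 1342 and 426. LOX, the listed gene below the filter, was higher in the knockout, at 43.1 and 6.84 against 2.19 and 2.63. The groups overlapped for ANGPTL4 and not for SLC2A3. All of the 29 but EGLN3 were higher in parental library 1 than in parental library 2. CA9 stood at 1361 normalized counts in the first but 288 in the second, HILPDA at 1180 but 621, and NDRG1 at 7580 but 4280. For such genes an overlap reflects the wide parental range and cannot show that the knockout left them unchanged. What set the parental libraries apart was not tested.

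Among 32 targets of ATF4, 30 passed the filter, with a median log2 fold change of 0.05. Of these, 10 had both knockout libraries above both parental ones and 6 had both below, where 22.8% and 23.7% of all genes tested did. DESeq2 called 0 higher and 1 lower, where it called 1.21% and 1.22% of all genes, and limma and edgeR called 0. Before adjustment limma put 5 higher and 3 lower at a p under 0.05, where it put 5.85% and 6.16% of all genes tested. The gene called was GDF15, a stress-induced cytokine that is also a p53 target, with 24.2 and 31.3 normalized counts in the knockout and 112 and 78.9 in the parental libraries (DESeq2 adjusted p = 0.0252, and 1.00 without either parental library). The 16 endoplasmic reticulum chaperones and unfolded protein response genes had a median of 0.14, with 9 higher and 0 lower in both knockout libraries, where 22.8% and 23.7% of all genes were. Of these 16, limma, edgeR and DESeq2 called 0. At an unadjusted limma p under 0.05, 3 were higher and 0 lower, where 5.85% and 6.16% of all genes tested were. HYOU1, a chaperone, had the largest change, at 18210 and 11554 in the knockout and 10552 and 10937 in the parental libraries, and DNAJC3, a co-chaperone, had 4978 and 4246 against 3664 and 3643.

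Of 16 reported regulators of either gene 14 passed the filter, with a median log2 fold change of 0.08, and limma, edgeR and DESeq2 called 0. Of these 14, 8 had both knockout libraries above both parental ones and 2 had both below, where 22.8% and 23.7% of all genes tested did. At an unadjusted limma p under 0.05, 1 was higher and 1 lower, where 5.85% and 6.16% of all genes tested were. HIF1A, the oxygen-regulated subunit of HIF-1, had a log2 fold change of 0.12 ± 0.09, and ATF4 one of 0.06 ± 0.07 (limma SE). EGLN3, a hydroxylase that marks HIF for degradation, had 18.9 and 10.7 normalized counts in the knockout and 7.67 and 8.77 in the parental libraries, and passed the filter only through the knockout libraries. Its relative EGLN1 had 5813 and 4283 against 3812 and 3581. ESR1, the oestrogen receptor, had at most 2.19 normalized counts in any library.

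**Figure D5:**
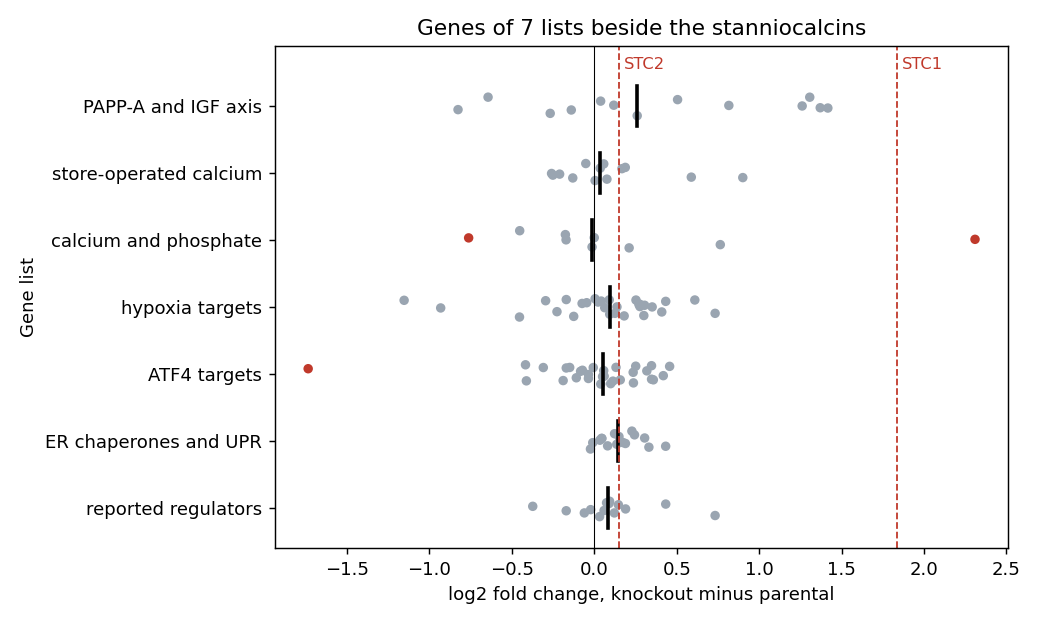
Log2 fold change, knockout minus parental (x axis), of each measured gene (points) in 7 lists (rows), with the list median as a black bar, genes called by DESeq2 in red, and STC1 (1.84) and STC2 (0.15) as dashed lines. The list medians lie between -0.01 and 0.26, and the only plotted gene above STC1 is PTHLH at 2.31.

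Markers of other cell types were set beside STC1, which fibroblasts and endothelial cells also express. Of 9 fibroblast markers 6 passed the filter, with summed normalized counts of 2668 and 1726 in the knockout and 1587 and 1527 in the parental libraries and a median log2 fold change of 0.40. Of these 6, 3 had both knockout libraries above both parental ones and 0 had both below, where 22.8% and 23.7% of all genes tested did. COL1A2 and COL3A1, which define that cell type, had at most 3.51 in any library. DCN, a fibroblast proteoglycan, had 30.5 and 27.3 in the knockout and 11.0 and 14.9 in the parental libraries, and PDGFRA 1033 and 368 against 355 and 284. FAP, a surface protease, had 329 and 342 in the knockout and 234 and 228 in the parental libraries. The groups overlapped for the other 3: COL1A1 had 73.7 and 58.6 in the knockout and 63.6 and 47.4 in the parental libraries, LUM 31.6 and 165 against 92.1 and 101, and PDGFRB 1166 and 764 against 829 and 847. Of 9 blood and endothelial markers 4 passed, with sums of 202 and 353 in the knockout and 153 and 187 in the parental libraries. Of these 4, 3 had both knockout libraries above both parental ones and 0 had both below, beside the same 22.8% and 23.7% of all genes tested. The endothelial gene PECAM1, which passed only through the knockout libraries, had 17.9 and 19.5 in the knockout and 7.67 and 6.14 in the parental libraries, VWF, also endothelial, 57.9 and 58.6 against 48.2 and 56.1, and LYZ, a myeloid gene, 114 and 263 against 80.0 and 113, while HBB was at 0 in every library. Of 8 epithelial markers 2 passed, KRT14 and CLDN4, with sums over the list of 692 and 347 in the knockout and 694 and 771 in the parental libraries, and CDH1 was at 0 in all 4. KRT14 had both knockout libraries below both parental ones, and the groups overlapped for CLDN4. Of 10 melanoma lineage markers 6 passed, with sums of 34567 and 34047 in the knockout and 40385 and 39403 in the parental libraries, mostly SOX10. Both knockout libraries were below both parental ones for 4 of the 6 and above for 1, PMEL, beside 23.7% and 22.8% of all genes tested. PMEL had 55.8 and 36.1 in the knockout against 28.5 and 28.1 in the parental libraries. DESeq2 called 1 of the 6, MITF, lower (adjusted p = 0.00272), where it called 1.22% of all genes lower. That call was lost without either parental library. The part of these markers in the level of STC1 was not tested. In bulk RNA, fewer cells of a type and less RNA per cell cannot be told apart.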

How the data were processed

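Poly(A)-selected RNA of 2 knockout and 2 parental libraries was sequenced with a strand-specific kit, per the labels' protocols. The deposited table holds a normalized signal; its values show that the authors scaled each library's gene counts by a single factor. The submitters' processing notes name hg38 and, with no version, role or order, the tools deepTools, DESeq2, HTSeq, Picard and STAR; annotation and strand setting were not given in the sources used here. Whole reads were recovered (100% of values within 0.001 of a whole multiple), with factors of 0.950, 1.02, 0.912 and 1.14 for knockout 2, knockout 8, parental 1 and parental 2. The factors leave gene length uncorrected and assume that most genes do not change.

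Groups were compared with limma 3.58.1 (trend, log2 of the normalized count plus 1) in 15431 genes with at least 10 normalized counts in at least 2 libraries, Benjamini-Hochberg adjusted, threshold 0.05. edgeR 4.0.16 (quasi-likelihood, TMM) and DESeq2 1.42.0 ran on recovered reads. All 3 were tested on simulated counts. Members and lists (11 lists, 180 entries, 4 matched through older symbols in RefSeq) were chosen with earlier results of these data known. Named were the members, the PAPP-A and calcium entry lists, up to 4 DESeq2 calls per other list (with none, the 2 largest changes), the 5 nearest profiles, and 2 neighbours on each side. HIF1A, ATF4, SLC20A1, SOX10, LOX, CA9, HILPDA, NDRG1, SLC2A1, LDHA, PMEL and the genes given as at or near 0 were named after their values were seen. The targeted gene and some genes that the rule names are not reported here.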

Additional observations from a re-analysis of the deposited data

How the results depend on the processing

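The log2 fold change of STC1 lay between 1.72 and 1.96, and that of STC2 between 0.10 and 0.20, under every alternative tried: edgeR and DESeq2 estimates, TMM factors, library totals, a pseudocount of 0.1, and each library left out in turn by limma and DESeq2. For STC1 both ends came from leaving out a knockout library with DESeq2. The count of calls over all genes was 0 by limma under every filter, pseudocount and scaling tried and by edgeR, but 398 by DESeq2. With a library left out it ranged from 0 to 5023 by limma and was 1270 and 2611 by DESeq2 without knockout libraries 2 and 8, and 39 and 46 without parental libraries 1 and 2. The library left alone in its group was taken to have the spread of the other group. Members of the 7 pathway lists called, 0 by limma and edgeR and 3 by DESeq2, ranged from 0 to 53 with a library left out by limma, and by DESeq2 numbered 13 and 41 without knockout libraries 2 and 8, and 0 without either parental library. With 10 neighbours on each side, the medians in knockout library 2 were 0.16 around STC1 and 0.085 around STC2. The genes nearest in profile were the same 5 for each member under library totals. No paired analysis was possible because the numbers of the knockout columns, 2 and 8, cannot be matched to the labels' replicate numbers. Scalings by TMM and library totals in the count of calls, and DESeq2 without each library, were added after seeing the data. Depth limits STC2, whose 249 to 312 reads per library gave Poisson intervals that overlapped in all 4 libraries.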
